A study of Mus musculus with 8 samples.

Results

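Platelets carry alpha granules filled with chemokines, adhesive proteins and clotting factors, and 10 genes of this cargo were followed here in mouse peripheral blood. The genes were chosen by their symbols (Pf4, Ppbp, Treml1, Selp, Vwf, Thbs1, Mmrn1, Sparc, Clu and F5), and each symbol matched 1 row of a table of 21878 gene symbols. RNA was sequenced from the blood of female WT C57BL/6 mice aged 6 to 8 weeks. The stress group (n = 4) was restrained for 6 hours in a tube with air holes, and the control group (n = 4) consisted of littermates left in the cage. Food and water were withheld from both groups, so that fasting was shared and the comparison was one of restraint. The sample was whole blood with no sorting of cells, and the labels do not say whether each library came from a separate mouse, so that the p-values measure the spread between these samples, which may be partly technical.

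Platelets have no nucleus, and the RNA they hold comes from megakaryocytes, the bone marrow cells that shed them. Megakaryocytes make the cargo proteins, sort them into alpha granules and pass both the granules and the matching transcripts on to platelets. When platelets are activated the granules fuse with the surface membrane, the soluble cargo is released and the granule membrane proteins appear on the cell surface. The counts measured here are of transcripts and carry no information on whether granules were released.

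The cargo genes lie on 7 chromosomes in GRCm38 (GENCODE M21), and 4 of them are close neighbours. Ppbp (chr5:90768518-90770063, plus strand) and Pf4 (chr5:90772435-90773383, plus strand) are chemokine genes that lie 2371 bases apart. Selp (chr1:164115264-164150026, plus strand) and F5 (chr1:164151838-164220277, plus strand) lie 1811 bases apart. Mmrn1 (chr6:60924976-60989378) and Vwf (chr6:125546774-125686679) share a chromosome but are far apart, and Treml1 (chr17:48359916-48367176), Thbs1 (chr2:118111876-118127133) and Clu (chr14:65968483-65981547) are on the plus strand as well. Sparc (chr11:55394500-55423183) is on the minus strand. All 10 are protein-coding, and their longest coding mRNAs ran from 588 bases for Pf4 to 8834 bases for Vwf, with 5 genes below and 5 above 3000 bases. Exons of Selp share 438 bases with Gm16548 and 186 bases with Gm16587 on the opposite strand. F5 shares 262 exon bases with Gm16548 and Thbs1 shares 208 with Gm29233, also on the opposite strand. The strand setting of the counting is not given in the sources used here, so the reads of those stretches cannot be assigned with certainty.

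Promoter sequences of 7 of the 10 genes were matched in RefSeq (GRCm38.p6), namely those of Pf4, Ppbp, Treml1, Selp, Mmrn1, Sparc and F5. Those of Mmrn1 (chr6:60944067-60944316) and Sparc (chr11:55420081-55420330) lie inside the gene spans given above, so they belong to starts that are not the outermost of the gene. The 250 bases before the start site are shown for the most abundant neighbouring pair, Pf4 and Ppbp, and for Treml1, the called gene of the granule membrane, 5′ to 3′ on the plus strand. Capitals mark the letters of a motif that was searched on both strands.
Pf4, chr5:90772185-90772434: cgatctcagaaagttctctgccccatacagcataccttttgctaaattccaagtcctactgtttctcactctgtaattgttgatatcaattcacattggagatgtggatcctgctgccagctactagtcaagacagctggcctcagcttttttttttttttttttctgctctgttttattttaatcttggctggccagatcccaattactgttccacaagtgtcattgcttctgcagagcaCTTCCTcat
Ppbp, chr5:90768268-90768517: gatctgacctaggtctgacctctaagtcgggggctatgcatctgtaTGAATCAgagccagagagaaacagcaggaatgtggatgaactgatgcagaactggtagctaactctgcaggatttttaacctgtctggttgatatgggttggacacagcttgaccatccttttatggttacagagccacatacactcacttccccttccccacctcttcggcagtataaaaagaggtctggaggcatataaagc
Treml1, chr17:48359666-48359915: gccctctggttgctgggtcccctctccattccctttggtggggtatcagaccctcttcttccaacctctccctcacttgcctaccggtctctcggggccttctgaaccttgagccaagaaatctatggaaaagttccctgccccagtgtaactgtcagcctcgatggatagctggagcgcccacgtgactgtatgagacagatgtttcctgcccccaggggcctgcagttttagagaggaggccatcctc
The motifs were those bound by GATA factors (AGATAA or AGATAG or TGATAA or TGATAG), by ETS factors (AGGAAG or CGGAAG) and by NF-E2 and AP-1 (TGANTCA), 3 factor families known to act in megakaryocytes. In the window of 300 bases that also holds the first 50 bases after the start, GATA letters were present in 2 of the 7 genes (Pf4 and Mmrn1) and in 29.8% of 32851 promoters. ETS letters were present in 3 of 7 (Pf4, Selp and F5) and in 46.5% of promoters, and TGANTCA in 2 of 7 (Ppbp and Selp) and in 7.81% of promoters. Both TGANTCA matches (TGAATCA in Ppbp and TGATTCA in Selp) lack the C or G that is usual in the middle of an NF-E2 or AP-1 site. The capitals in the Pf4 sequence are an ETS match on the minus strand at position -9, and those in Ppbp are a TGAATCA match at position -204. The Pf4 GATA match lies after the start, at position 37, and is shown in capitals between its flanks.
Pf4, chr5:90772462-90772484: aggcagtgaAGATAAaacgtgct
Neither Treml1 nor Sparc held any of these letters in its window. A match of this length is a description of the letters and not evidence of binding.

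Libraries held 31471145 to 39014775 counts in the control samples and 25978683 to 29655725 in the stress samples. Haemoglobin genes, the transcripts of red cells, took 51.9% to 63.8% and 61.2% to 75.5% of these counts, so that 11412556 to 18774818 and 6355715 to 11009882 counts remained for all other genes. Levels are given as CPM, the counts scaled to a common library size, after TMM scaling, which sets the typical gene as unchanged between libraries. The TMM factors were 1.01 to 1.77 in the control samples and 0.507 to 1.10 in the stress samples. The test took in 11718 genes that reached 10 counts in 4 or more samples, and all 10 cargo genes were among them. Stress replicate 3, which also had the fewest counts and the highest haemoglobin share, stood apart from the other libraries in its ratio of long to short transcripts, and the results that rest on it are given with and without it in the last paragraphs. A gene was called when its log2 fold change (stress against control, edgeR quasi-likelihood test) was beyond 1 in either direction and its Benjamini-Hochberg adjusted p over all tested genes was below 0.01.

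On the TMM scale all 10 cargo transcripts had a positive log2 fold change in the stress group, with a median of 0.99 beside -0.03 for all tested genes. Pf4, Treml1 and Thbs1 were called, 3 of 10, beside 1.69% of all tested genes called higher, and no cargo gene was called lower, beside 0.0171%. Without the fold threshold 8 of 10 were higher at an adjusted p below 0.01, beside 4.59% of all tested genes, and 9 at a limit of 0.05, F5 included, beside 10.4%. None was lower at these limits, beside 0.324% and 3.69%. The lowest stress sample exceeded the highest control for 8 of the 10 genes, all but Sparc and F5, and this held for 11.1% of all tested genes. The log2 fold changes of 8 of the 10 genes lay between 0.86 and 1.09, near the threshold, and the number of calls depended on single libraries. It was 0 without control replicate 2, 1 (Thbs1) without control replicate 3 or without stress replicate 2, and 6 without control replicate 4. Among all tested genes the number called higher moved as well, from 198 with all libraries to 76, 95, 199 and 340 in these fits, in the same order. Of the 8 fits that each left out 1 library, Pf4 was called in 3, Treml1 in 4 and Thbs1 in 7. With scaling by total counts in place of TMM, the median log2 fold change was 0.22 for the cargo genes and -0.82 for all tested genes, no cargo gene was called higher (0.119% of all tested genes were) or lower (6.22%), and the groups overlapped for all 10. In whole blood, fewer cells of a type and less RNA per cell cannot be told apart, in platelets or in the other cells they are measured against.

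**Figure D1:**
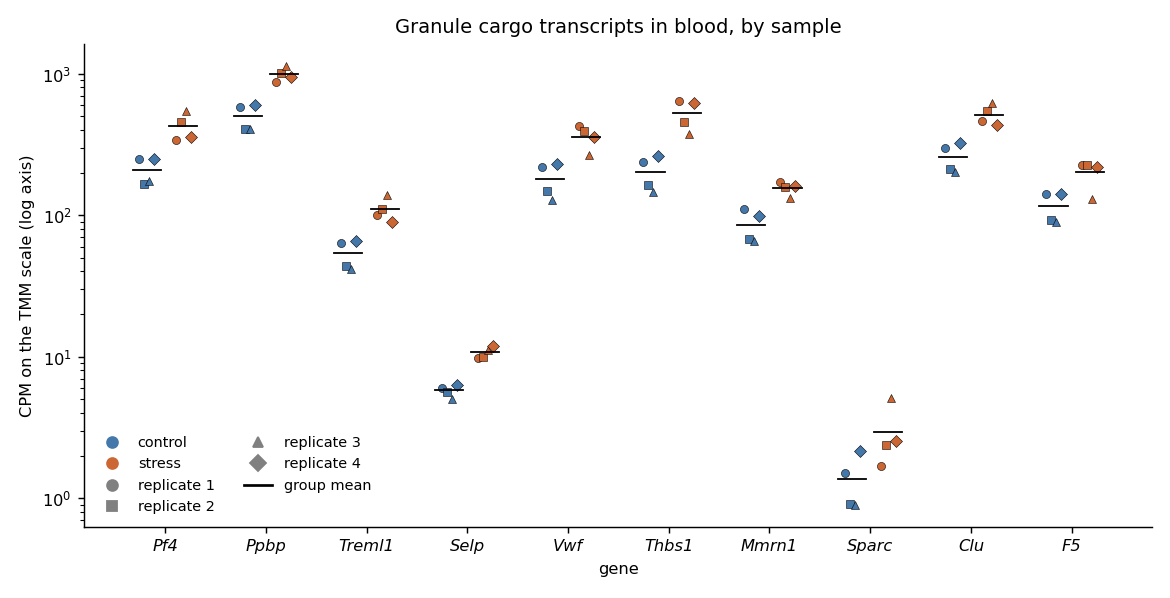
CPM on the TMM scale (log axis) of the 10 cargo genes, with 1 point per sample and a bar for the mean of each group (n = 4). The stress samples lie above all control samples for 8 genes, and the groups overlap for Sparc and F5.

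Of the chemokine genes, Ppbp was the most abundant cargo transcript in CPM, while Pf4 was below Clu in every sample. Pf4 encodes platelet factor 4 (CXCL4), which binds heparin and related sugar chains. Its level was 251, 167, 173 and 248 CPM in control replicates 1 to 4 and 343, 454, 549 and 356 CPM in stress replicates 1 to 4. Control replicates 1 and 4 were the higher controls, and the lowest stress sample was still above both. The mean rose from 210 ± 46.0 to 425 ± 96.3 CPM (SD, n = 4 each), a log2 fold change of 1.02 ± 0.20 (SE, edgeR adjusted p = 0.00563). Ppbp encodes pro-platelet basic protein, the precursor that is cut to the neutrophil-attracting chemokine CXCL7. It measured 586, 409, 404 and 598 CPM in the control samples and 868, 1004, 1135 and 952 CPM in the stress samples. The controls fell into the same higher and lower pairs as for Pf4, and no stress sample reached down to them. Its log2 fold change of 0.99 ± 0.20 (SE, edgeR adjusted p = 0.00707) stayed just under the threshold of 1. The ratio of Ppbp to Pf4 counts within a library was 2.33, 2.45, 2.33 and 2.41 in the control samples and 2.53, 2.21, 2.07 and 2.67 in the stress samples. The neighbouring chemokine transcripts thus kept a ratio between 2.07 and 2.67 in every library, with a wider spread under stress.

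Treml1 and Selp encode proteins of the granule membrane that reach the platelet surface on activation. Treml1 (TLT-1) is a receptor found in platelets and megakaryocytes. Its level was 63.2, 43.9, 42.0 and 66.0 CPM in the control samples and 100.3, 111, 139 and 89.6 CPM in the stress samples. The groups did not overlap, and stress replicate 3 was the highest. Treml1 rose by a log2 fold change of 1.03 ± 0.18 (SE, edgeR adjusted p = 0.00275). Selp encodes P-selectin, the adhesion molecule that binds PSGL-1 on leukocytes and is also stored in endothelial cells. It was low in blood, at 6.03, 5.65, 5.03 and 6.34 CPM in the control samples and 9.86, 9.88, 11.2 and 11.9 CPM in the stress samples. These values were the tightest of the 10 genes, with a coefficient of variation of 9.79% in the control samples and 9.52% in the stress samples. The log2 fold change of Selp was 0.90 ± 0.13 (SE, edgeR adjusted p = 0.00107), which was the smallest adjusted p of the 10 genes, although the change was under the fold threshold.

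Among the adhesive and matrix cargo, Thbs1 had the largest log2 fold change of the 10 genes. Thbs1 encodes thrombospondin 1, a glycoprotein that binds CD36 and CD47 and is made by monocytes and other cells as well as megakaryocytes. It measured 236, 165, 147 and 264 CPM in the control samples and 644, 453, 377 and 621 CPM in the stress samples. Stress replicates 1 and 4 were the highest, and the lowest stress sample was well above the highest control. Its log2 fold change was 1.37 ± 0.23 (SE, edgeR adjusted p = 0.0025). Vwf encodes von Willebrand factor, which tethers platelets to injured vessel walls and is made in megakaryocytes and endothelial cells. It measured 219, 147, 127 and 231 CPM in the control samples and 424, 391, 268 and 356 CPM in the stress samples. The groups were separated by the narrow step between control replicate 4 and stress replicate 3. The log2 fold change of Vwf was 0.99 ± 0.21 (SE, edgeR adjusted p = 0.00874).

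Mmrn1 encodes multimerin 1, a large granule protein that binds factor V. Its level was 111, 68.0, 65.2 and 99.0 CPM in the control samples and 171, 158, 133 and 161 CPM in the stress samples. The groups did not overlap, and the stress samples were closer together than the controls. Its log2 fold change was 0.86 ± 0.17 (SE, edgeR adjusted p = 0.00604). Sparc, which encodes the collagen-binding protein osteonectin, was at the lowest level, with 47 to 68 counts per control library and 38 to 79 per stress library. It measured 1.50, 0.910, 0.896 and 2.15 CPM in the control samples and 1.70, 2.37, 5.09 and 2.53 CPM in the stress samples. The groups overlapped, since stress replicate 1 lay below control replicate 4, and stress replicate 3 was the highest. The log2 fold change of 1.09 ± 0.37 (SE, edgeR adjusted p = 0.0637) did not pass the test.

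Clu encodes clusterin, an extracellular chaperone that also limits complement. Its level was 297, 212, 203 and 326 CPM in the control samples and 465, 544, 618 and 431 CPM in the stress samples. As for Pf4, control replicates 1 and 4 were the higher controls and stress replicate 3 was the highest of all, with no overlap between groups. Clu had a log2 fold change of 0.99 ± 0.20 (SE, edgeR adjusted p = 0.00589). F5 encodes coagulation factor V, the cofactor of factor Xa in thrombin formation, which mouse megakaryocytes make themselves. It measured 141, 92.6, 89.7 and 142 CPM in the control samples and 228, 227, 131 and 220 CPM in the stress samples. In stress replicate 3 it lay within the range of the controls, far below the other stress samples. The log2 fold change of F5 was 0.79 ± 0.21 (SE, edgeR adjusted p = 0.0251), which passed neither limit of the call. In an exact two-sided permutation test over the 70 assignments of the 8 samples, p was 0.0286, the smallest that 4 against 4 samples allow, for the 8 genes without overlap, 0.0571 for Sparc and 0.0857 for F5.

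Because these genes share their libraries, they were also described by their share of the summed counts of the 10 genes, which needs no scaling between libraries. Ppbp made up 30.2% to 32.1% of that sum in the control samples and 26.7% to 33.7% in the stress samples, Clu 15.5% to 16.4% and 13.4% to 18.4%, and Pf4 12.5% to 13.8% and 10.5% to 16.3%. The shares of these 3 genes were more spread among the stress samples than among the controls. For Selp the opposite held, at 0.316% to 0.431% and 0.295% to 0.372%, and Sparc varied in both groups, at 0.0694% to 0.108% and 0.0521% to 0.151%. For Treml1 the share was 3.33% ± 0.0190 and 3.33% ± 0.576 (SD, n = 4 each). The share of Thbs1 was 11.7% to 13.3% in the control samples, 19.8% and 19.4% in stress replicates 1 and 4, and 11.2% in stress replicate 3. F5 made up 7.06% to 7.39% of the sum in the control samples, 6.77% to 6.99% in stress replicates 1, 2 and 4 and 3.88% in stress replicate 3.

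Per kilobase of mRNA, the control levels were highest for Ppbp (461 ± 99.3 CPM per kb, SD, n = 4), Pf4 (357 ± 78.2) and Clu (143 ± 33.8). Ppbp was above Pf4 in 4 of 4 samples although their ranges overlapped, and Clu stood clear of the gene on either side. Treml1 (43.5), Thbs1 (34.7), Vwf (20.5), Mmrn1 (19.1) and F5 (15.7 CPM per kb) followed, and the ranges of neighbours in this order overlapped. Selp (1.68) and Sparc (0.592 CPM per kb) were lowest and did not overlap with each other or with F5. In the stress group the order was the same except that Thbs1 (89.6 ± 22.2 CPM per kb) and Treml1 (89.1 ± 17.3) changed places, with Thbs1 higher in 2 of 4 samples. The lengths are those of the longest coding transcript and may not be the form that platelets carry.

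**Figure D2:**
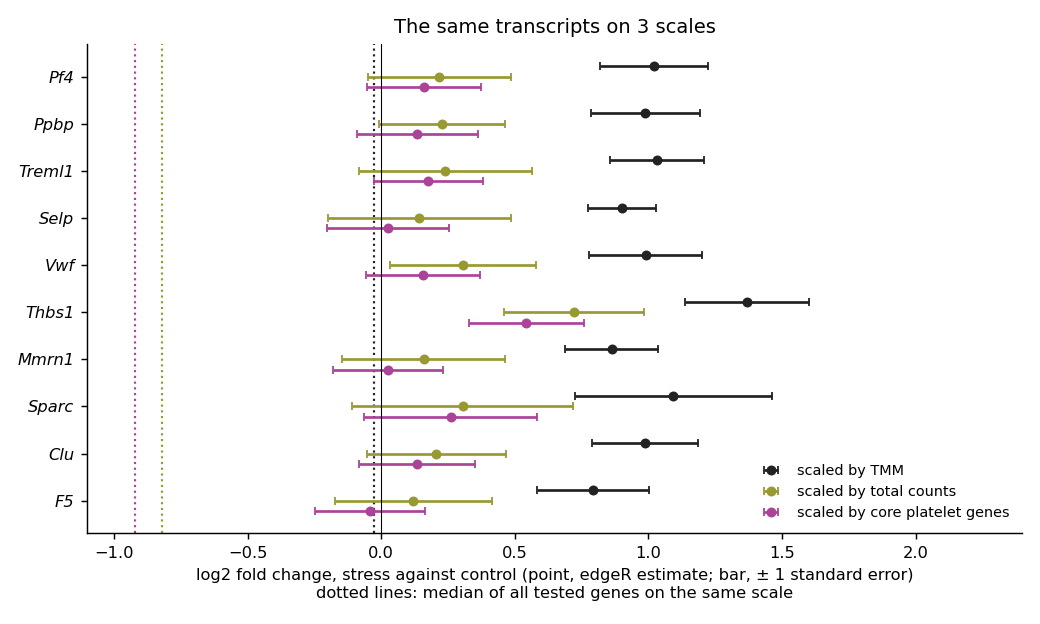
Log2 fold change of each cargo gene, stress against control, on 3 scales (TMM, total counts and relative to core platelet genes), with points for the edgeR estimates and bars for 1 standard error. All TMM points lie between 0.79 and 1.37, and the points relative to core platelet genes lie between -0.04 and 0.26 except that of Thbs1 at 0.54.

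To see whether the cargo transcripts moved apart from other platelet transcripts, 20 core platelet genes were taken (surface receptors such as Itga2b, Gp5 and Gp1bb, the platelet tubulin Tubb1 and others). Their geometric mean level was 40.8 to 57.4 CPM in the control samples and 80.7 to 93.4 CPM in the stress samples. On the TMM scale 18 of 20 had a positive log2 fold change, 6 were called higher and 16 passed an adjusted p below 0.01 without the fold threshold, with a median of 0.96. The 4 called genes with the smallest p were F2rl2, a thrombin receptor of mouse platelets (1.08 ± 0.14, SE, edgeR adjusted p = 0.000929), Gp5 (1.00 ± 0.15, adjusted p = 0.00126), P2ry1, a receptor for ADP (1.19 ± 0.18, adjusted p = 0.00132), and Gp1bb (1.21 ± 0.18, adjusted p = 0.00152). The number called was 2 without control replicate 2, 3 without control replicate 3, 11 without control replicate 1 and 13 without control replicate 4. Of all tested genes, 76, 95, 226 and 340 were called higher in these fits, in the same order, beside 198 with all libraries. Named after their values were seen, Tbxa2r (-0.09 ± 0.15) and Pear1 (-0.06 ± 0.10) had log2 fold changes near 0.

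When each library was scaled by the geometric mean of the core platelet genes, the cargo genes had a median log2 fold change of 0.15, beside 0.10 for the core genes and -0.92 for all tested genes. On this scale 1 of 10 cargo genes, Thbs1, was higher at an adjusted p below 0.05, beside 0.708% of all tested genes, and none was lower, beside 75.5%. The change of Thbs1 was 0.54 ± 0.22 (SE, edgeR adjusted p = 0.017), and for the other genes it lay between -0.04 for F5 and 0.26 for Sparc, with an SE of 0.20 to 0.32. The error of the scaling factor is not carried by this test, and Tbxa2r and Pear1, which did not move with the other core genes, are part of it. Without them the change of Thbs1 was 0.44 (adjusted p = 0.0617), and no cargo gene passed, but when stress replicate 3 was left out as well it was 0.58 (adjusted p = 0.0145). With the full core list and without stress replicate 3 it was 0.69 (adjusted p = 0.00277). The call of Thbs1 was also lost without stress replicate 1 (0.45, adjusted p = 0.0887) or stress replicate 4 (0.39, adjusted p = 0.106).

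**Figure D3:**
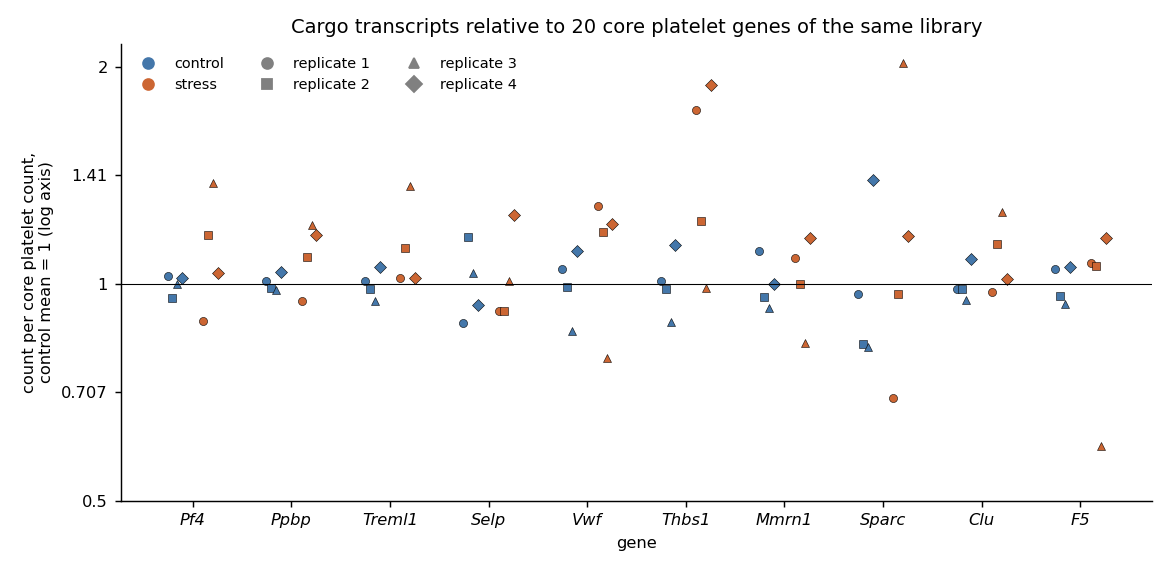
Ratio of each cargo gene to the geometric mean of 20 core platelet genes in the same library, divided by the control mean of that gene (log axis), with 1 point per sample. Most points lie close to 1, Thbs1 is high in stress replicates 1 and 4, and F5 is low and Sparc high in stress replicate 3.

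Thbs1 counts were 4.11, 4.01, 3.61 and 4.61 times the core geometric mean in the control samples and 7.10, 4.98, 4.03 and 7.70 times in the stress samples. Stress replicates 1 and 4 were far above all controls, replicate 2 was just above and replicate 3 lay within their range. Against Vwf, another long adhesive transcript, the ratio of Thbs1 counts was 1.08, 1.12, 1.15 and 1.14 in the control samples and 1.52, 1.16, 1.41 and 1.75 in the stress samples. The ratio was above every control in all stress samples, by little in replicate 2. It was chosen after the values were seen and was not tested.

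Monocytes are another source of Thbs1. The summed level of 10 classical monocyte markers was 460, 365, 426 and 492 CPM in the control samples and 1253, 727, 1110 and 1157 CPM in the stress samples, led by the lysozyme gene Lyz2. All 10 markers had a positive log2 fold change, 6 were called, and their median was 1.29. The list did not move evenly, with log2 fold changes of 0.02 for Ms4a6c, 0.53 for Csf1r (adjusted p = 0.164) and 0.83 for Ly6c2 (adjusted p = 0.0341), and relative to the core platelet genes 4 of the 10 were higher and 1, Ms4a6c, was lower. Fn1, a marker of this list that encodes fibronectin and was picked after its values were seen, measured 14.2, 12.4, 14.3 and 15.9 CPM in the control samples and 94.7, 29.5, 35.9 and 102 CPM in the stress samples. Stress replicates 1 and 4, with the most Thbs1, also had the most Fn1 and the highest marker sums. Stress replicate 3 had a marker sum nearly as high with the lowest Thbs1 level of the stress group. That library also had the lowest ratio of long to short cargo transcripts, and Thbs1 is among the long ones. The part of monocyte transcripts in the Thbs1 result was not tested.

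Other cells that can make cargo transcripts were checked by their markers. Of 16 endothelial markers 10 were tested, all above 0 (median 0.89 on the log2 TMM scale), and Plvap (1.21) and Esam (1.10) were called. Their sum was 118 to 146 CPM in the control samples and 191 to 210 CPM in the stress samples, but most of it was Pecam1 (103 and 142 CPM on average), which platelets and leukocytes also express. Apart from Pecam1, the endothelial markers ran from low to moderate counts. The 6 that were not tested (Tek, Emcn, Robo4, Cldn5, Sox17 and Mmrn2) had at most 20 counts in any library, and Cdh5 had 1 to 29. Kdr had 22 to 105 counts per library (log2 fold change 0.75, adjusted p = 0.0466), Tie1 52 to 114 (1.04, adjusted p = 0.0231), Plvap 69 to 124 and Esam, which platelets also express, 700 to 1105. Vwf had 3531 to 11110 counts per library, and the part of endothelial transcripts in the Vwf and Selp values was not tested. The sum of 10 fibroblast markers was 3.72 to 8.67 CPM in the control samples and 10.3 to 12.5 CPM in the stress samples, led by Col1a2. All 6 tested were above 0 (median 0.62) and 0 were called. Col1a2 was just short of the call (log2 fold change 1.48, edgeR adjusted p = 0.0102). Relative to the core platelet genes it was the 1 fibroblast marker that was higher (0.66, adjusted p = 0.0491), and 0 were lower. The fibroblast sums are above the Sparc level in every group, and the part of fibroblast transcripts in the Sparc values was not tested. Of 8 liver markers 1 was tested, Trf, and it was called higher, at 4.93 and 15.1 CPM (log2 fold change 1.64, edgeR adjusted p = 0.00148). Relative to the core platelet genes it was higher by 0.77 (adjusted p = 0.00104). The sum of the liver markers was 3.72 to 6.75 and 9.46 to 19.4 CPM. Nearly all of it was Trf, since each of the other liver markers had at most 6 counts in any library.

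Blood cell markers moved on the TMM scale as well. The 10 neutrophil markers were all above 0 (median log2 fold change 1.49, 8 called), with a sum of 197 to 386 CPM in the control samples and 607 to 900.3 CPM in the stress samples, led by Csf3r. Csf3r itself (0.82, edgeR adjusted p = 0.0546) and Mmp9 (0.97, adjusted p = 0.0136) were not called. The 9 red cell markers tested were above 0 with a median of 1.04 and 0 called, and their sum, led by Hbb-bs, was 304500 to 667500 CPM in the control samples and 583100 to 1546000 CPM in the stress samples, with overlap. These sums are on the TMM scale and are not shares of a library, in which haemoglobin genes took at most 75.5% of the counts. The 8 B cell markers were all below 0 (median -0.54, 0 called, 3 at an adjusted p below 0.01), with a sum of 991 to 1220 CPM and 672 to 888 CPM, led by Cd79a. The 8 T cell markers had a median of -0.06 with 0 called and a sum of 315 to 357 CPM and 292 to 378 CPM, led by Lck. The cargo genes together took 0.451% to 0.574% of the counts outside haemoglobin in the control samples and 0.698% to 0.908% in the stress samples. Their summed counts per library were 62828 to 87016 and 44359 to 99974 and overlapped, while fewer counts outside haemoglobin were present in every stress library than in any control. Control replicates 1 and 4, with the higher cargo levels, had haemoglobin shares of 61.1% and 63.8%, and control replicates 2 and 3 had 57.2% and 51.9%. The part of the haemoglobin share in these levels was not tested.

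**Figure D4:**
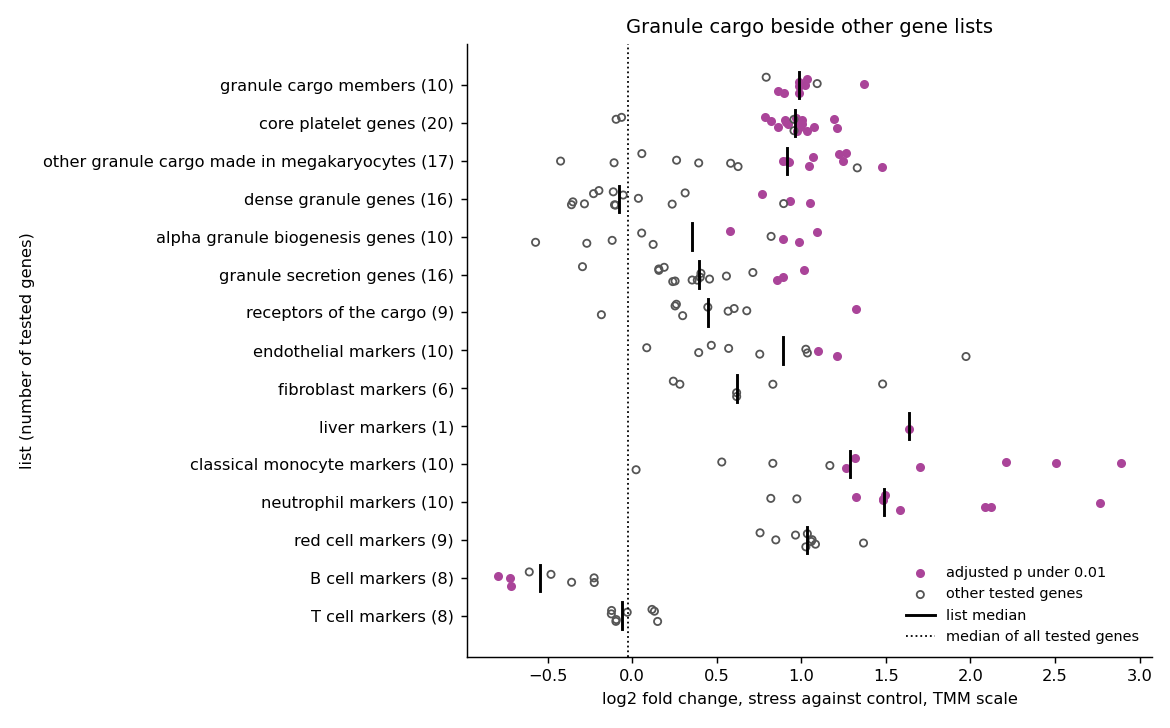
Log2 fold changes on the TMM scale for the genes of each list, with 1 point per tested gene, a bar for the list median and a dotted line for the median of all tested genes. The cargo genes (median 0.99) and core platelet genes (0.96) lie at similar values, and the dense granule genes (-0.08) scatter around 0.

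Other genes of the granule pathway were taken from lists and described in the same way. Of 20 further cargo genes made in megakaryocytes 17 were tested, 15 were above 0, 6 were called and 9 passed an adjusted p below 0.01 without the fold threshold, with a median of 0.91. The 4 called genes with the smallest p were F13a1, the A chain of factor XIII (1.27 ± 0.14, SE, edgeR adjusted p = 0.000766), Ltbp1, which binds latent TGF-beta (1.07 ± 0.14, adjusted p = 0.0009), the protease inhibitor Serpine2 (1.25 ± 0.17, adjusted p = 0.00106) and Pdgfa, a growth factor chain (1.05 ± 0.17, adjusted p = 0.00188). F13a1 is also a monocyte marker and stands in that list too. Relative to the core platelet genes 1 of the 17 was higher, App, the amyloid precursor protein gene, at 0.61 (adjusted p = 0.00604), named here after its value was seen. Lower on that scale were 4 of the 17, also named after their values were seen, namely Tgfb1 (-0.49), Pdgfb (-0.998), Ccl5 (-0.83) and Gas6 (-1.26), beside 0.708% of all tested genes higher and 75.5% lower. The 8 granule proteins that platelets take up from plasma, such as fibrinogen and albumin, had at most 4 counts in any library and were not tested. This differs from the cargo genes, whose least abundant transcript had at least 38 counts in each library.

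Dense granules hold small molecules such as serotonin and ADP in place of proteins. Of 18 dense granule genes 16 were tested, 7 were above 0 and the median was -0.08, and Slc6a4, the serotonin transporter gene, was the gene called (1.05 ± 0.14, SE, edgeR adjusted p = 0.0009). Many genes of this list act in lysosomes of all blood cells. Of the 10 genes of alpha granule formation and megakaryocyte transcription 7 were above 0 with a median of 0.35, and the transcription factor gene Gfi1b was called (1.10 ± 0.23, adjusted p = 0.00872). Of 16 tested secretion genes 15 were above 0 with a median of 0.39, and Rab27b, a GTPase of granule release, was called (1.02 ± 0.15, adjusted p = 0.00109). Of 9 tested receptors of the cargo 8 were above 0 with a median of 0.45, and Cxcr2, the neutrophil receptor for the Ppbp product, was called (1.32 ± 0.23, adjusted p = 0.00375). Cxcr2 is also among the neutrophil markers.

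The genes whose profile was nearest to the mean profile of the 10 cargo genes over the 8 samples were found by the root mean square difference of centred log2 CPM. They were Ndrg1 (0.058), Itga2b (0.0632), P2rx1 (0.0675), Litaf (0.0707) and Mctp1 (0.0723), beside a median of 0.625 over all tested genes. Itga2b encodes the integrin alpha-IIb chain of platelets and P2rx1 a platelet channel opened by ATP. By the same measure Ppbp (0.0768, rank 8 of 11718) was the cargo gene nearest to the mean profile and Sparc (0.406, rank 1602) the farthest, although the cargo genes are part of that mean. Of the 40 nearest genes 5 were in the core platelet list, which holds 20 of the 11718 tested genes. All points of this comparison share the same 8 libraries.

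Stress replicate 3 stood apart from the other libraries by transcript length. The summed counts of the 5 cargo genes over 3000 bases (Selp, Vwf, Thbs1, Mmrn1 and F5) were 0.594, 0.574, 0.528 and 0.598 times those of the 5 shorter genes (Pf4, Ppbp, Treml1, Sparc and Clu) in the control samples. In stress replicates 1 to 4 the ratio was 0.830, 0.586, 0.376 and 0.748. The controls were close together, stress replicates 1 and 4 were above them and replicate 3 was below. Thbs1, itself highest in stress replicates 1 and 4, is part of the long sum and adds to the ratio there. The ratio of F5 to Pf4 was 0.562, 0.555, 0.518 and 0.571 in the control samples and 0.664, 0.501, 0.238 and 0.617 in the stress samples. The ratio of Vwf to Pf4 put the stress samples in the same order, with 0.735 to 0.931 in the control samples and 1.24, 0.861, 0.488 and 0.999 in the stress samples.

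The pattern was not limited to the cargo genes. Over all tested genes with a length, the median log2 deviation of a sample from the mean of the other samples of its group in the longest 2824 genes minus that in the shortest 2826 was -0.68 in stress replicate 3, 0.23, 0.08 and 0.33 in stress replicates 1, 2 and 4 and -0.07 to 0.05 in the control samples. The values of stress replicates 1, 2 and 4 are set against a mean that includes replicate 3. Without stress replicate 3, the log2 fold change was 0.97 for F5 (edgeR adjusted p = 0.0046), 1.12 for Vwf (adjusted p = 0.00501, then called) and 1.51 for Thbs1 (adjusted p = 0.00169). For the short transcripts it was 0.89 for Pf4 (adjusted p = 0.00712) and 0.92 for Treml1 (adjusted p = 0.00734), both then under the fold threshold. With an offset for mRNA length in each library, an alternative added after the data were seen, Pf4 had 0.61 (adjusted p = 0.012), Treml1 0.86 (adjusted p = 0.00272), Vwf 1.19 (adjusted p = 0.00106) and F5 0.94 (adjusted p = 0.00255). The sign stayed positive in all 10 cargo genes, while Vwf and Thbs1 were the 2 called in both of these fits. Of all tested genes, 176 were called higher without stress replicate 3 and 197 with the length offset, beside 198 in the main fit. The cause of the length pattern was not tested.

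**Figure D5:**
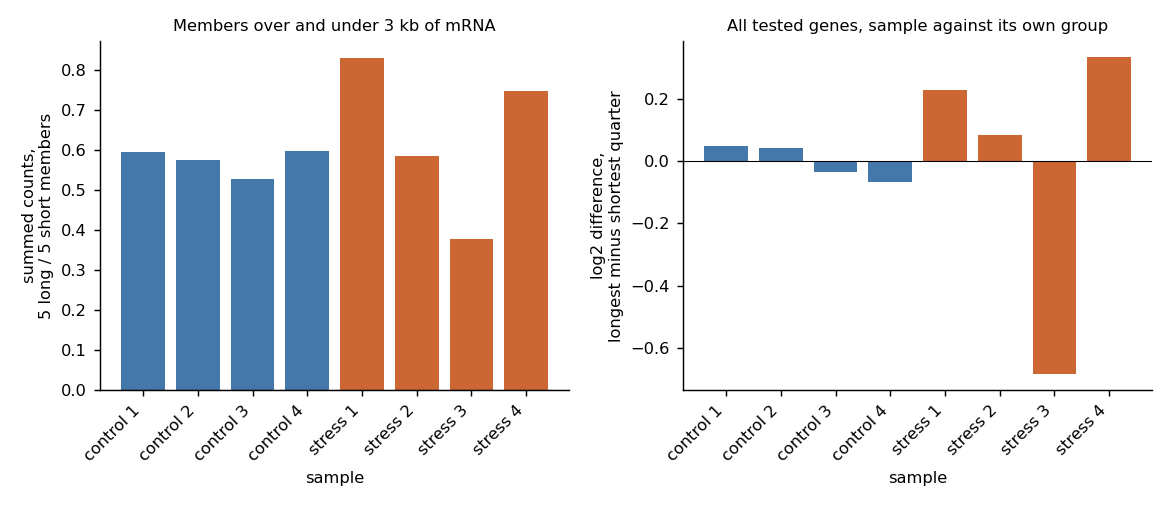
Left, the ratio of summed counts of the 5 cargo genes over 3000 bases to those of the 5 shorter ones in each sample. Right, the median log2 deviation of a sample from the others of its group in the longest 2824 tested genes minus that in the shortest 2826, where stress replicate 3 is the lowest sample at -0.68.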

How the data were processed

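Total RNA of peripheral blood was sequenced after a TruSeq preparation. The authors deposited whole-number read counts per gene symbol with no normalization. Per the labels, HISAT2 and featureCounts were used with the mm10 build; versions, annotation and strand setting are not given in the sources used here.

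In R 4.3.3, edgeR tests took in the genes that reached 10 counts in 4 or more samples (version 4.0.16, TMM, robust quasi-likelihood test, all 8 samples, no covariates). A call needed an absolute log2 fold change above 1 and, as in the study, a Benjamini-Hochberg adjusted p below 0.01. A further fit set each library size to the geometric mean count (plus 1) of 20 core platelet genes and used an adjusted p below 0.05. Exact permutation tests used log2(CPM + 0.5). Counting error grows at low counts, as for Sparc, and the scripts were tested on simulated data. Coordinates and lengths are from GENCODE M21 (GRCm38).

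All 10 cargo genes are named. From each platelet or granule list the called genes are named, or else the gene with the smallest p, at most 4. Of markers of other cells the sum and the top gene are given, and so are the 5 genes nearest in profile. Further marker genes were named after their values were seen. The members and lists were chosen with earlier results of these data known. Alternatives were DESeq2 1.42.0, limma-voom (3.58.1), other scalings, filters and thresholds, a pseudocount of 2, tables lacking haemoglobin genes, a fit with a replicate block and fits that each lacked 1 library. An mRNA length offset (lowess span 0.3) and a core list of 18 genes were added after the data were seen.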

Additional observations from a re-analysis of the deposited data

Results flagged for a closer look

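F5 in stress replicate 3 was far from the other stress samples, at 131 CPM on the TMM scale beside 220 to 228 CPM. Its gap to the nearest sample was 0.921 of the range of the group, above Dixon's critical value for 4 samples. Of 20 combinations of a cargo gene and a group this was the 1 marked, and chance marks about 1 in 20 groups. The same library had the lowest ratio of long to short cargo transcripts.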

How the results depend on the processing

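The log2 fold changes of the 10 cargo genes were positive in all 170 values from alternative fits (0.12 to 1.55), and 0 were called lower in any. The number called higher, 3, was also 3 with DESeq2, limma-voom, RLE, no haemoglobin genes and both other filters, but 0 with total counts and 8 with no fold threshold, and 0 to 6 when 1 library was left out. Core platelet genes called, 6, became 0 with total counts, 16 with no fold threshold and 2 to 13 without 1 library. All genes called higher, 198, became 307 with DESeq2, 14 with total counts, 538 with no fold threshold, 337 at an adjusted p below 0.05 and 76 to 340 without 1 library. All genes called lower, 2, became 12 with DESeq2, 729 with total counts, 4 with no filter, 38 with no fold threshold, 20 at an adjusted p below 0.05, 1 with the replicate block and 1 to 8 without 1 library.

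No pairing by replicate number was seen, since deviations of same-numbered samples correlated at 0.06, 0.00, -0.04 and -0.16. With 4 samples per group these values cannot exclude a pairing. With a replicate block, 2 cargo genes were called (Vwf and Thbs1) and 189 genes were called higher in all.

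Relative to core platelet genes the 1 cargo gene higher, Thbs1, became 0 at an adjusted p below 0.01, 0 with the core list without Tbxa2r and Pear1, and 0 to 1 without 1 library. Signs near 0 turned there. With summed core counts Selp had -0.0649 and Mmrn1 -0.0536. With the core list without Tbxa2r and Pear1 they had -0.0845 and -0.0803. Leaving out stress replicate 3 as well gave Pf4 -0.0652, Ppbp -0.0184, Treml1 -0.0376, Selp -0.0837, Sparc -0.183, Clu -0.0492 and F5 0.0237, and Thbs1 passed again (0.58, edgeR adjusted p = 0.0145), while with the full core list and without stress replicate 3 it had 0.69 (adjusted p = 0.00277). Without 1 library Selp ranged from -0.0872 to 0.101, Mmrn1 from -0.0414 to 0.114, Sparc from -0.076 (without stress replicate 3) to 0.455 and F5 from -0.138 to 0.133 (without stress replicate 3). The mean log2 CPM difference of F5 was -0.0199 with total counts. The cause was not tested.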
